A study of Mus musculus with 2 samples.

Results

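The genes examined encode the neurotrophins Bdnf and Ntf3 and their receptors Ntrk2 (TrkB), Ntrk3 (TrkC), Ngfr (p75) and Sort1 (sortilin), 6 of 21851 protein-coding genes in GENCODE M21 (mouse genome build mm10). Their accessible sites were all DNase peaks, in the longer of the peak lists of each sample, that touched the annotated gene or 20 kb to either side. This gave 145 of 144270 peaks in replicate 1 and 101 of 124426 in replicate 2. DNase-seq was done on hippocampus, with the tissue label layer of hippocampus, of male B6CASTF1/J mice, the cross of C57BL/6J with CAST/EiJ. The mice were aged 8 to 10 months, with no treatment given in the labels. The 2 samples were biological replicates of 1 group, each made from 2 pooled biosamples. Both have 1 donor label in common, and the labels do not say if an animal contributed to both pools. There was no second group, so no condition was compared and no test was possible. The spread between the pools may be partly technical.

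Neurotrophins are secreted growth factors that keep neurons alive and shape their synapses. Bdnf acts through the receptor tyrosine kinase TrkB and Ntf3 mainly through TrkC, whereas p75 binds mature neurotrophins weakly and, together with sortilin, binds their uncleaved precursors. In the hippocampus Bdnf is known for its role in long-term potentiation and for transcription that rises with neuronal activity from several alternative promoters, each joined to a different first exon, with 1 shared coding exon. TrkB and TrkC also occur as truncated receptors without the kinase domain.

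DNase I cuts DNA that is not wrapped in a nucleosome, so a peak marks an accessible stretch, and a footprint is a short protected run of bases inside it. Peaks of both replicates that overlapped were merged into 1 site, and sites were numbered within each gene by position along the chromosome. The sequences on which the Bdnf results turn are given first, from the mm10 reference genome (the C57BL/6J sequence), 5′ to 3′ on the strand of Bdnf. The first is the stretch just before start 4, the start of the transcript usually numbered exon IV and known for its response to neuronal activity, at chr2:109692301-109692435 (+). Its capitals mark matches to the CRE core TGACG, the E-box CATATG and the NPAS4 core TCGTG, searched on both strands. In the other sequences, here and for the other genes, capitals mark bases covered by footprints of both replicates. They are the tall site just inside start 7 at chr2:109694921-109695120 (+), 300 of the 360 bp of the tallest site of the gene at chr2:109678093-109678392 (+), and an intronic site at chr2:109711141-109711360 (+).
Bdnf site 9: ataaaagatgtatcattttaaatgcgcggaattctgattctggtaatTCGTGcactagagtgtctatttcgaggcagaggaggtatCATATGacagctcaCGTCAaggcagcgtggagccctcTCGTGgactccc
Bdnf site 12: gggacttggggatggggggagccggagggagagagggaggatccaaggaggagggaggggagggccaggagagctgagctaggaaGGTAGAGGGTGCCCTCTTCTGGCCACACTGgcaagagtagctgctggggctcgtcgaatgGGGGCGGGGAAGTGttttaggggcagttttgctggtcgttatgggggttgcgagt
Bdnf site 8: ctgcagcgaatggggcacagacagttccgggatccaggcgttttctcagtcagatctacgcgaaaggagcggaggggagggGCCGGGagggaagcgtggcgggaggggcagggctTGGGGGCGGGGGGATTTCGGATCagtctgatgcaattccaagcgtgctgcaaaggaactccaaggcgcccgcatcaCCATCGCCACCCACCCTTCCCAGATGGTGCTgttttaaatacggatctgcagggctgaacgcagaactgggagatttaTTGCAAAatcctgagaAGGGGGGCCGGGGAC
Bdnf site 16: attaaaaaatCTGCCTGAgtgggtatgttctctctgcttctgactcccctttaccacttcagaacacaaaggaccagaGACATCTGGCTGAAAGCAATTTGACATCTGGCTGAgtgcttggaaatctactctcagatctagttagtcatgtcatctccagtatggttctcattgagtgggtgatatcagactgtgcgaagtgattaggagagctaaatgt
The printed 135 of the 280 bp of site 9 held 1 CRE core (CGTCA on the printed strand, chr2:109692401-109692405), 1 CATATG and 2 TCGTG. The second TCGTG lay within a match to a longer CTCF consensus string of 12 letters, 3 of them free. The CRE core was covered by a footprint in replicate 2, over 5 of 5 bases, and by none in replicate 1. Neither replicate had a footprint over CATATG. In site 12 the longer CTCF string (chr2:109695016-109695027) was covered over 12 of 12 bases in both replicates, by footprints of 30 bp and 35 bp. The same site held the SP/KLF string GGGGCGGGG, covered over 9 of 9 bases in both, as was the copy in site 8. Site 16 held 13 bases, GACATCTGGCTGA, in 2 copies that started 22 bp apart (chr2:109711219-109711231 and chr2:109711241-109711253). Each copy contains CATCTG, the E-box CAGATG read from the other strand, and both lay in 1 long footprint of 37 bp in replicate 1 and 39 bp in replicate 2.

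For the other genes the sequences show the tallest site found in both replicates that lay over 1000 bp from any start of that gene or another gene, outside untranslated exons. They are at chr6:126106481-126106740 (-), chr13:59073754-59074053 (+), chr7:78390061-78390320 (-), chr11:95586301-95586520 (-) and chr3:108295421-108295669 (+), each printed on the strand of its gene. For Ntrk2, 300 of the 480 bp of the site are printed.
Ntf3 site 3: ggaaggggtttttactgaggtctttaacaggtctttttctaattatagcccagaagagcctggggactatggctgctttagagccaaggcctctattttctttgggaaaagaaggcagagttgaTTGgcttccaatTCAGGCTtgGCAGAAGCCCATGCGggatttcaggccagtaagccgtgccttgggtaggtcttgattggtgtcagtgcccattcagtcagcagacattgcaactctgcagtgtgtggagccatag
Ntrk2 site 30: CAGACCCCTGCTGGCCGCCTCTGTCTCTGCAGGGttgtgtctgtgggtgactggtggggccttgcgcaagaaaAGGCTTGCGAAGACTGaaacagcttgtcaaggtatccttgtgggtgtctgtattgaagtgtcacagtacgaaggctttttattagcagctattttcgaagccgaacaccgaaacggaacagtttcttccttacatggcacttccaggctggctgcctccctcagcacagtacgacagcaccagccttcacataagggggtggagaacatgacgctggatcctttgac
Ntrk3 site 8: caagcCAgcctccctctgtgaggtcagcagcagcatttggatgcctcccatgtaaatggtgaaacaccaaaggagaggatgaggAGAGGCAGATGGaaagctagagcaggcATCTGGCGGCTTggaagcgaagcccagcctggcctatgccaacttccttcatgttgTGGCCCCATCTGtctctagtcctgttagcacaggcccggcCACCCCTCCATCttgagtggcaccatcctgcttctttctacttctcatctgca
Ngfr site 2: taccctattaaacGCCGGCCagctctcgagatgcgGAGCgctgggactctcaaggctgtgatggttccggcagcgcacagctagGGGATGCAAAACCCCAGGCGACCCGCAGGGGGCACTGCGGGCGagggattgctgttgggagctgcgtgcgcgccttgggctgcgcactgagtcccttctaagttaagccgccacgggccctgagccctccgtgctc
Sort1 site 4: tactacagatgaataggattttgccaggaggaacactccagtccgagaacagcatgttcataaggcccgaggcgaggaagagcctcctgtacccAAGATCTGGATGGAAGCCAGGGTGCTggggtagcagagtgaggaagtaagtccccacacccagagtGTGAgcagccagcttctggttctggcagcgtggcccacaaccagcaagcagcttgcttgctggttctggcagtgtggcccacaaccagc
Ntrk3 site 8 held CAGATG, or its reverse CATCTG, 4 times, of which 3 were touched by footprints in both replicates, over 5 or 6 of their 6 bases. Ngfr site 2 held AGGGGGC, the CTCF core, inside a footprint of 43 bp in replicate 1 and 45 bp in replicate 2 (chr11:95586404-95586410).  A match is a description of letters and does not show which protein was bound.

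Over the whole series the median peak height, the authors' value for each peak in units whose scale is not stated, was 0.643 in replicate 1 and 0.639 in replicate 2. Heights below 200 steps were whole multiples of 1 small step in each sample. On that step the tallest Bdnf peak of replicate 1 came to 576 steps and the lowest to 41. The read depth is unknown here, so no counting interval is given for a height. Promoter peaks of cell type markers were counted, since chromatin of every cell type in the pool is summed. All 5 excitatory neuron markers and 3 of 3 CA3 markers had a promoter peak in both replicates, as had 2 of 3 for dentate granule cells and for CA1. The counts were 2 of 4 for inhibitory neurons, 4 of 5 for astrocytes, 4 of 5 for oligodendrocytes, 1 of 4 for microglia, 1 of 4 for endothelium, 1 of 3 for choroid plexus and 1 of 3 for cerebellum. Of all 42 markers 26 had a promoter peak in both replicates, near the 62.6% of all protein-coding genes. Each count rests on 3 to 5 genes, so the labelled tissue was not verified by them. Which cells carried the peaks described here was not tested. A site open in few cells and a site weakly open in many cells cannot be told apart.

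All 6 genes had a peak within 1000 bp of a coding start in both replicates, as had 62.6% of all protein-coding genes. The height of the tallest such peak differed between the genes, in the same order in each replicate. Ntrk2 stood at 4.94 and 4.10 in replicates 1 and 2, Sort1 at 4.29 and 3.18, and Bdnf at 2.80 and 2.27. Ntrk3 stood at 1.23 and 1.06, Ngfr at 0.755 and 0.749, and Ntf3 at 0.676 and 0.510. The values of Ntrk2 and Sort1 overlapped between replicates, and no other neighbours in that order did. The median over all genes with an open promoter was 3.26. By the mean of the replicates, Ntrk2 at 4.52 and Sort1 at 3.73 lay above it and the other 4 below. Replicate 2 of Sort1, at 3.18, was itself below that median. That order and that split hold for the 1000 bp window. With 2000 bp the mean of the replicates rose from 0.752 to 1.86 for Ngfr, above the 1.14 of Ntrk3, and from 2.53 to 3.54 for Bdnf. Of all open promoters, 34.9% were as tall as that of Ntrk2 or taller, 43.9% as that of Sort1, 59.5% as that of Bdnf, 81.9% as that of Ntrk3, 90.4% as that of Ngfr and 93.9% as that of Ntf3.

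The 6 genes held 152 sites, of which 90 were found in both replicates, 54 in replicate 1 alone and 8 in replicate 2 alone. Of the 145 peaks of replicate 1, 62.1% overlapped a peak of replicate 2, against 72.3% of all its peaks. In replicate 2 the share was 91.1%, against 84.1%. Thus peaks called in replicate 1 alone made up more of the list at these genes than in the whole sample. Of the 55 unshared peaks of replicate 1, 10 touched bases listed at a false discovery rate of 0.05 or less in replicate 2, to be read against 14.4% of all such peaks. Of the 9 unshared peaks of replicate 2, 4 touched bases listed in replicate 1, against 25.1%. Of the 152 sites, 30 lay within 1000 bp of a start of their gene, 20 of them found in both replicates, and 122 lay farther away, 70 found in both. Peaks per 10 kb were 1.46 ± 0.843 (SD, n = 2) for Bdnf, 1.47 ± 0.335 for Ntf3, 1.32 ± 0.301 for Sort1, 0.871 ± 0.154 for Ntrk2, 0.723 ± 0.176 for Ntrk3 and 0.509 for Ngfr in each replicate. The median of all genes was 0.759. Among genes of the same length decile the median was 0.780 for Bdnf, 0.716 for Ntf3 and Sort1, 0.605 for Ntrk2 and Ntrk3, and 0.848 for Ngfr, the one member below its own. Densities of Bdnf, Ntf3 and Sort1 were thus near each other, and Bdnf had the widest spread between replicates of the 6.

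Bdnf (chr2:109674700-109727007, + strand) has 8 annotated start sites, after starts within 100 bp were joined, and 7 of them had a peak within 1000 bp in both replicates. Of all start sites of coding genes 43.1% did, and in the 1056 genes with at least 8 start sites the median share was 36.4%. The windows of neighbouring Bdnf starts overlap, so several starts share the same peak. A peak covered the start base itself in both replicates at 2 of the 8, starts 4 and 6, against 22% of all starts and a median of 12.5% in the genes with at least 8 start sites.

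The first group comprises starts 1 to 3, within 2332 bp of each other, and an antisense gene, Gm45346, runs across the first part of it. Near start 1 (109674700) the tallest peak was 0.663 in replicate 1 and 0.465 in replicate 2, and it lay 240 bp and 380 bp upstream without covering the start. Near start 2 (109675897), shared by 3 transcripts, the values were 1.10 and 0.691, and the nearest peak lay 244 bp and 255 bp downstream. Both starts therefore lay beside an open site and not in it. At start 3 (109677032) the tallest peak in the window was 1.10 in replicate 1, the same peak as for start 2, and 0.859 in replicate 2, at site 7. Site 7 itself stood at 1.00 in replicate 1 and 0.859 in replicate 2. A peak of 0.420 covered the start in replicate 1, whereas in replicate 2 the nearest began 129 bp downstream.

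The second group comprises starts 4 to 7. Start 4 (109692436) was covered in both replicates, by peaks of 1.33 and 0.730. Start 6 (109693563) was covered as well, by peaks of 1.23 and 0.639. Start 5 (109693027), between them, was covered in neither, with the nearest peak 487 bp and 447 bp upstream. Start 7 (109694409 to 109694469) had the tallest promoter peak of the gene, 2.80 and 2.27, but 452 bp downstream of the start, at site 12. The start 7 base itself had a peak of 0.525 in replicate 1 and none in replicate 2. At all 4 of these starts replicate 1 was the higher sample.

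Start 8 (109709383), the most 3′ of the annotated first exons, was the only start with no peak within 1000 bp, and none of the 501 bases around it was listed at a false discovery rate of 0.05 or less in either replicate. The nearest peak lay 1212 bp downstream in replicate 1 and 1758 bp downstream in replicate 2. A further start found in RefSeq but not among the GENCODE starts (109722921) was covered by a peak of 0.459 in replicate 1, with no peak within 1000 bp in replicate 2. With the shorter, stricter peak list only starts 3 and 7 had a peak within 1000 bp in both replicates.

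**Figure D1:**
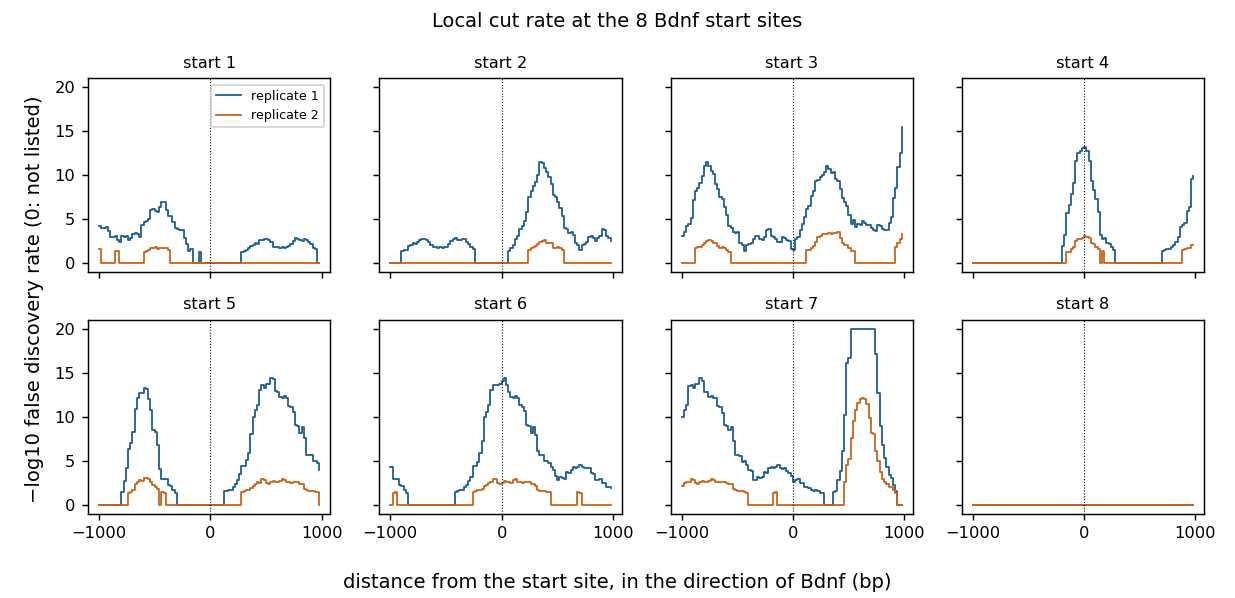
Local cut rate around each of the 8 Bdnf start sites, as −log10 of the authors' false discovery rate (vertical axis, 0 where no base was listed, values capped at 20) against distance from the start in bp (horizontal axis), in 20 bp bins, for replicate 1 (blue) and replicate 2 (orange). The signal is centred on the start at starts 4 and 6, lies beside it at starts 1, 2 and 5, and is absent at start 8. At starts 3 and 7 the highest values lie downstream, with lower values over the start itself in replicate 1 alone. The blue line runs above the orange one at each peak.

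The tallest Bdnf site was not at a start. Site 8 (chr2:109678061-109678420) lay in an intron, 1029 bp from start 3, with heights of 3.78 in replicate 1 and 3.29 in replicate 2. It was listed at false discovery rates down to 5.95e-46 and 1.45e-19, and held 8 and 5 footprints. Site 16, in an intron 1758 bp beyond start 8, stood at 1.71 and 1.19. It was the only site found in both replicates more than 1000 bp from a start besides site 8. In the 20 kb downstream of Bdnf there was no peak in either replicate, and the 10 sites found in replicate 1 alone were low, at most 0.525.

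**Figure D2:**
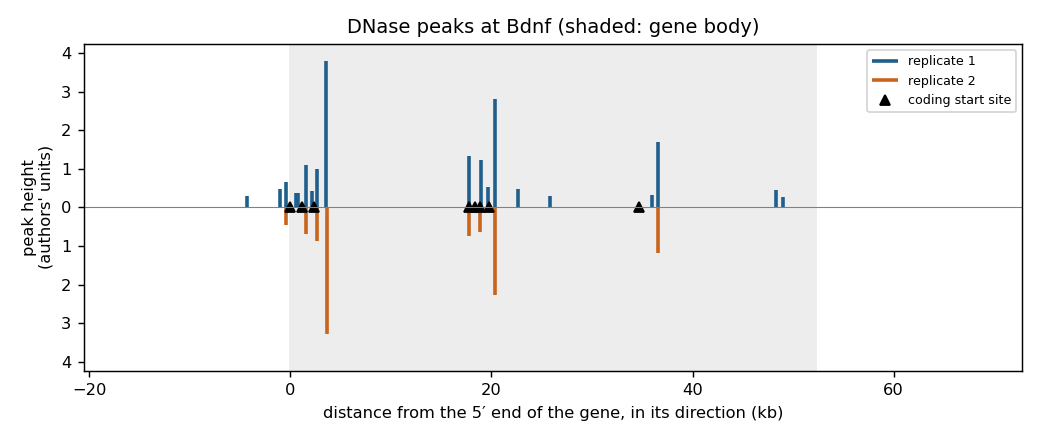
Peak height in the authors' units (vertical axis, replicate 1 upward in blue, replicate 2 downward in orange) against distance in kb from the 5′ end of Bdnf (horizontal axis), with the gene body shaded and triangles at the 8 start sites. The 8 sites found in both replicates fall into the first group of starts, the second group and site 16, and the tallest line, 3.78 and 3.29, stands just after the first group.

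Of the 6 genes, Bdnf had the smallest share of its peaks from replicate 2. It had 19 peaks in replicate 1 and 8 in replicate 2, so that 29.6% of its peaks came from replicate 2. Over the 4790 genes with at least 20 peaks the median share was 46.9%, and 2.82% of them had a share as low as that of Bdnf or lower. The shares of Ntf3, Ntrk2, Ntrk3 and Sort1 lay between 41.4% and 43.8%. All 8 Bdnf sites found in both replicates were lower in replicate 2, also after replicate 2 was scaled to the median ratio of all peak pairs. Their median height was 1.28 in replicate 1 and 0.794 in replicate 2. The lowest false discovery rate of the site was smaller in replicate 1 at 8 of 8 sites, with a median −log10 of 13.8 against 3.32. Over all 6 genes it was smaller in replicate 1 at 55 of 90 sites. By gene these were 3 of 3 for Ngfr, with medians of 5.72 and 4.80, 21 of 30 for Ntrk3, with 3.97 and 3.56, 7 of 13 for Sort1, 6 of 12 for Ntf3 and 10 of 24 for Ntrk2, with 5.22 and 4.59. These comparisons were chosen after the Bdnf counts were seen. Of the 10 sites found in replicate 1 alone, 3 had bases listed at 0.05 or less in replicate 2.

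Ntf3 (chr6:126101412-126166910, - strand) encodes neurotrophin-3, in the adult hippocampus best known from the dentate gyrus. It had 18 peaks in replicate 1 and 13 in replicate 2, merged into 19 sites of which 12 were found in both, and none of those 12 averaged more than 1 in height. Near its most upstream start the site 931 bp upstream stood at 0.676 in replicate 1 and 0.491 in replicate 2. The site over start 3 stood at 0.433 and 0.510, and was thus the taller of the pair in replicate 2 only. Start 2 had no peak within 1000 bp in either replicate. The Ntf3 starts were therefore weakly open, and 2 of 3 had a peak in the window in both replicates.

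The taller Ntf3 sites lay in introns. Site 3 stood at 1.11 in replicate 1 and 0.788 in replicate 2, and site 15 (chr6:126163201-126163680), 1280 bp from a start, at 0.860 and 1.01. Sites 12 to 18 formed a dense run inside start 3, at most 2880 bp from it, among them site 13 at 0.774 and 0.755. The tallest site found in a single replicate was 0.551, in replicate 1.

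Ntrk2 (chr13:58806569-59133970, + strand) encodes TrkB, the Bdnf receptor. It had 36 peaks in replicate 1 and 28 in replicate 2, and 24 of its 39 sites were found in both. Its 5 coding starts lie within 2122 bp and were all open, whereas the 2 starts of non-coding transcripts farther in had no peak within 1000 bp. Site 1, over the first start, stood at 4.94 in replicate 1 and 4.10 in replicate 2. Site 2, over the second start, stood at 4.85 and 3.88. Site 3, over the fifth start, was lower, at 1.60 and 1.30. The promoter region of Ntrk2 thus consisted of a pair of tall sites followed by a lower one.

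In the introns of Ntrk2, site 30 (chr13:59073661-59074140) was about as tall as the promoter site, with 4.81 in replicate 1 and 4.13 in replicate 2, and lay 267331 bp into the gene. An antisense gene, 4930415C11Rik, runs across it. Site 33 stood at 3.30 and 2.12, and site 25 at 2.17 and 1.52. The tallest site counted for Ntrk2, site 37 at 6.19 and 4.44, lay in the downstream flank at the starts of the lincRNAs Gm34307 and Gm34354. The transcript Ntrk2-202 ends early, at 58937027, and of the 34 sites in the body of Ntrk2, 20 lay beyond that end, over 196943 of the 327402 bp of the gene, with 10 of them found in both replicates. Sites 25, 30 and 33 were all among those beyond it. The tallest site found in a single replicate, site 11, reached 1.16 in replicate 1, with 27 bases of it listed at 0.05 or less in replicate 2.

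Ntrk3 (chr7:78175959-78738012, - strand) encodes TrkC, the receptor for Ntf3. It had 51 peaks in replicate 1 and 36 in replicate 2, and 30 of its 55 sites were found in both. GENCODE gives it 15 start sites, most of them of non-coding transcripts, and 7 were open in both replicates, 2 with the start base covered. Coding starts 7 to 9 lie close together, and there site 29 stood at 1.23 in replicate 1 and 1.06 in replicate 2. This region held a row of low sites and no single tall one, and an antisense gene, Gm9885, overlaps part of it.

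The tallest Ntrk3 site was intronic. Site 8 (chr7:78390061-78390320) stood at 2.64 in replicate 1 and 2.83 in replicate 2, 12239 bp from the nearest start, higher in replicate 2. Site 48 (chr7:78718261-78718640) stood at 2.39 and 1.96, 41 bp from the start of the non-coding transcript Ntrk3-218. Site 34 stood at 2.24 and 1.35 and site 26 at 1.96 and 1.24. They lie to either side of coding starts 7 to 9. The starts nearest to them, 7343 bp and 2651 bp away, were starts 6 and 10, both of non-coding transcripts. The first start of the gene as annotated, of 3 non-coding transcripts, had no peak within 1000 bp. Coding start 4 had only a low peak in that window, 0.368 in replicate 1 and 0.362 in replicate 2. The tallest site found in a single replicate, site 35, stood at 0.866 in replicate 1. Beyond the end of the short transcript Ntrk3-202 (78300690), over 124731 bp of gene body, only 2 of 52 body sites lay, both found in both replicates. The splits of Ntrk2 and Ntrk3 at these transcript ends were chosen after the site maps were seen.

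Ngfr (chr11:95568818-95587735, - strand) encodes p75, which in the adult forebrain is best known from cholinergic neurons whose cell bodies lie outside the hippocampus. It had 3 sites, all found in both replicates. The promoter site stood at 0.755 in replicate 1 and 0.749 in replicate 2. The intronic site 2 (chr11:95586301-95586520), 1215 bp inside the gene, was taller, at 1.84 and 1.87. The remaining site stood at 0.453 and 0.510. Its 3 sites were the most even of the 6 genes between replicates, and Ngfr had no peak in either 20 kb flank.

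Sort1 (chr3:108284082-108361511, + strand) encodes sortilin, a sorting receptor that also binds proneurotrophins. It had 18 peaks in replicate 1 and 13 in replicate 2, and 13 of its 18 sites were found in both. The promoter site stood at 4.29 in replicate 1 and 3.18 in replicate 2, and ended 2 bp short of the start in replicate 2. An antisense gene, Gm12523, overlaps this site and starts within 1000 bp of it. Start 2, of the non-coding transcript Sort1-202, was covered by a peak of 0.814 in replicate 1. In replicate 2 it had no peak within 1000 bp. The second tallest, site 15 (chr3:108358461-108358860) in an untranslated exon, stood at 2.64 and 1.43. Site 4, in an intron, stood at 1.83 and 1.49. Sites 6 to 9 formed a cluster in an intron, with heights from 0.676 to 1.45 in replicate 1 and from 0.613 to 1.38 in replicate 2. Sites 17 and 18 lay within the next gene, Mybphl. Few Sort1 peaks were in the shorter peak list, 6 of 18 in replicate 1 and 5 of 13 in replicate 2, where 59.2% and 58.4% of all peaks were. Yet the lowest Sort1 peak stood at 0.571 in replicate 1, against 0.269 for Bdnf. At Bdnf 13 of 19 peaks of replicate 1 were in the shorter list, with a median height of 0.479 over all 19. Membership of that list thus did not follow height alone at Bdnf and Sort1.

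**Figure D3:**
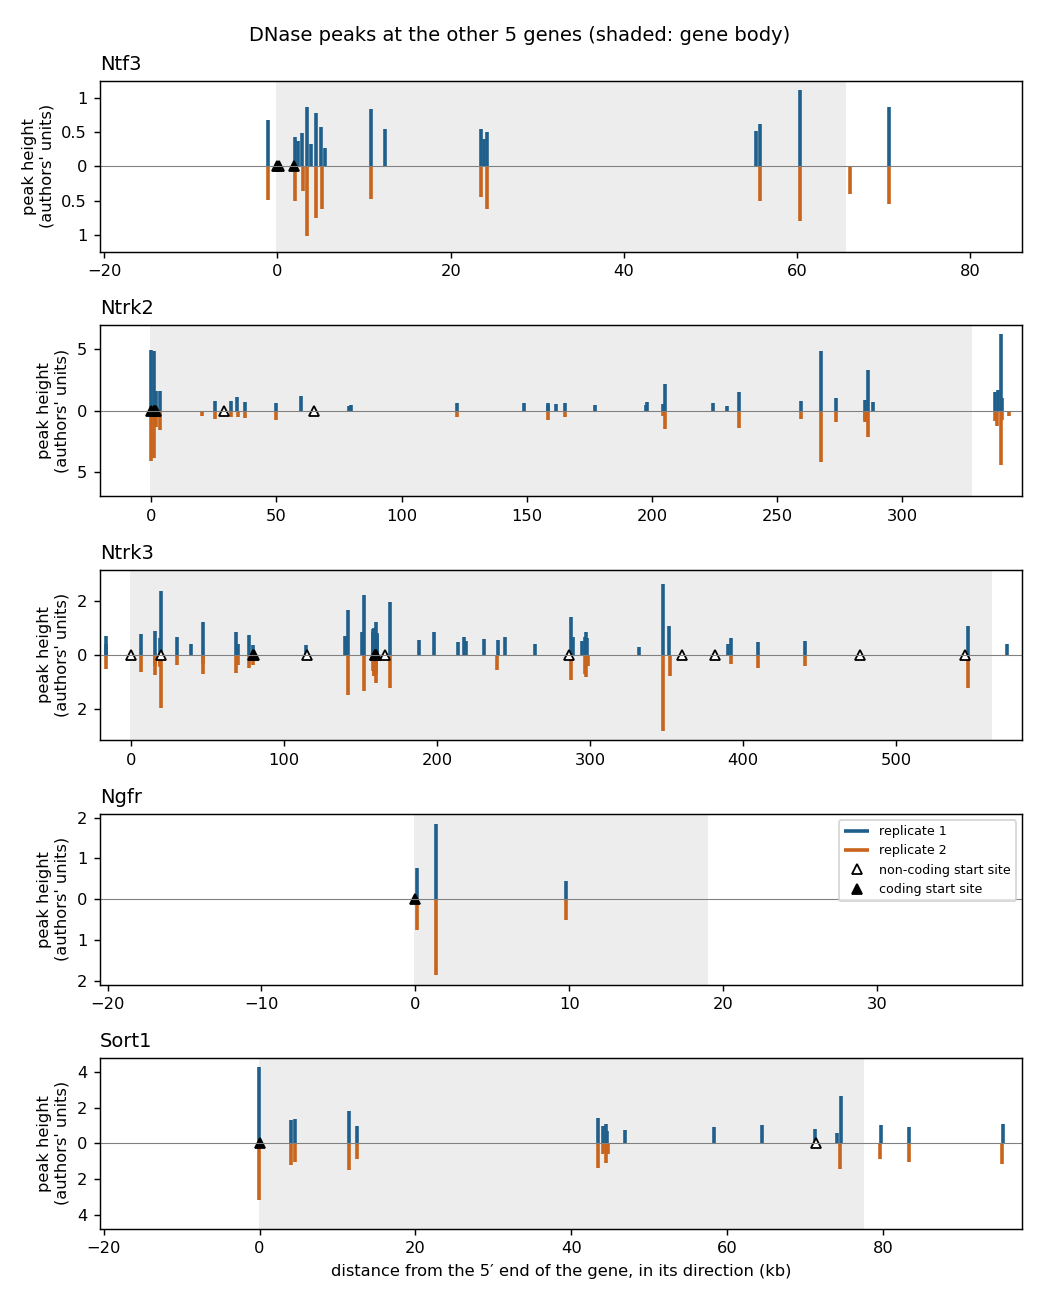
Peak height in the authors' units (vertical axes, replicate 1 upward in blue, replicate 2 downward in orange) against distance in kb from the 5′ end of each gene (horizontal axes), for Ntf3, Ntrk2, Ntrk3, Ngfr and Sort1, with gene bodies shaded and triangles at coding (black) and non-coding (white) start sites. In replicate 1, Sort1 and, but for the site at the lincRNA starts, Ntrk2 have their tallest line at the first start (4.29 and 4.94), whereas the tallest lines of Ntf3, Ntrk3 and Ngfr, at 1.11, 2.64 and 1.84, are intronic.

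Between the replicates, 75 of 90 height pairs at the 6 genes were lower in replicate 2, or 83.3%, against 70.3% of all pairs. The median log2 ratio of replicate 2 to replicate 1 was -0.29, against -0.19 over the 101938 pairs of the series. By gene the median ratio was -0.52 for Bdnf, -0.27 for Ntf3, -0.28 for Ntrk2, -0.34 for Ntrk3, -0.18 for Sort1 and 0.03 for Ngfr. After scaling to the series median, all 90 pairs lay within a factor of 2, as did 101350 of the 101938 pairs of the series. Replicate 2 was thus lower at most sites, and Bdnf had the lowest median of the 6 genes.

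**Figure D4:**
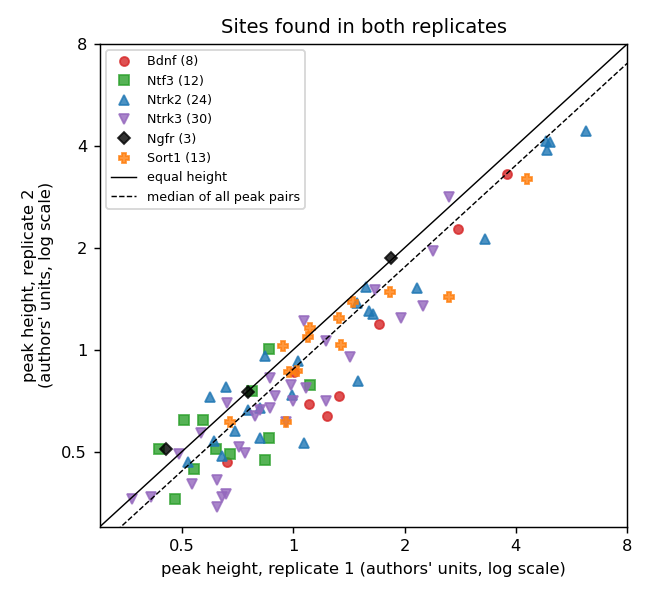
Height in replicate 2 (vertical axis) against height in replicate 1 (horizontal axis), both in the authors' units on log scales, for the 90 sites found in both replicates, with 1 symbol per gene, a solid line at equal height and a dashed line at the median ratio of all peak pairs (log2 -0.19). All 8 Bdnf points lie below the dashed line, while the 3 Ngfr points lie on or above the solid line or close under it.

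A footprint lay wholly inside 80.0% of the peaks of these genes in replicate 1 and 83.2% in replicate 2, against 77.9% and 80.8% of all peaks. Of the footprints inside peaks of replicate 1, those found again in replicate 2 were 42 of 92 for Ntrk2, 11 of 35 for Bdnf, 12 of 38 for Ntf3, 34 of 101 for Ntrk3, 15 of 44 for Sort1 and 6 of 6 for Ngfr. The share over all footprints inside peaks of replicate 1 was 50%. Starting from replicate 2, where it was 53.3%, 47 of 80 were found again for Ntrk2, 12 of 25 for Bdnf, 14 of 33 for Ntf3, 34 of 72 for Ntrk3, 13 of 23 for Sort1 and 6 of 10 for Ngfr. Ngfr, with few footprints, was above the share of all footprints in both replicates, Ntrk2 and Sort1 were above it in replicate 2 and below it in replicate 1, and the other 3 genes were below it in both. At Bdnf the overlaps of a footprint of each replicate numbered 5 in site 8, 2 each in sites 5, 12 and 16, 1 each in sites 3 and 9, and 0 in sites 7 and 10. An overlap of 1 bp was enough throughout, and in sites 3 and 5 the footprints met only at their ends. Sites 9 and 10 are those over starts 4 and 6.

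Exact strings known from factors of neuronal transcription were searched in the peaks of these genes and in all peaks, on both strands. The CRE core TGACG, bound by CREB, was in 13.1% of the peaks of these genes in replicate 1 and 13.9% in replicate 2, against 12.3% and 12.8% of all peaks. The E-box CAGATG, a form bound by neuronal helix-loop-helix factors, was in 24.8% and 22.8%, against 26.6% and 25.3%. The AP-1 string TGANTCA was in 4.83% (7 of 145) and 2.97% (3 of 101), against 9.23% and 8.79%, and with so few peaks this difference is not a result about the genes. The SP/KLF string GGGGCGGGG was in 5.52% and 4.95%, against 3.54% and 3.73%. The longer CTCF string was in 2.07% and 2.97%, against 3.86% and 4.45%. The exact strings for EGR (GCGTGGGCG), NFI, MEF2, NRF1 and the glucocorticoid response element were in none of the peaks of these genes, and EGR, the most common of them, was in 0.345% and 0.356% of all peaks. The E-box forms are contained in CANNTG, and the median peak length was 217 bp and 219 bp at these genes against 200 bp in all. Of 32851 RefSeq promoters of 300 bp, 20.8% held TGACG, 16% held the NPAS4 core TCGTG and 3.91% held CATATG. The NPAS4 core was in 11.0% and 12.9% of the peaks of these genes, against 12.1% and 12.4% of all peaks.

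Of 52 other genes of neurotrophin signalling, 48 had a promoter peak in both replicates, to be read against the 62.6% of all coding genes. The list was chosen with results of these data known. Ntf5, which encodes the ligand neurotrophin-4, had no promoter peak in either replicate. All 4 genes of the sortilin family were open, the tallest Sorcs2 at 2.72 in replicate 1 and 2.59 in replicate 2. Of the genes for processing and release 10 of 11 were open, with Htt, which moves Bdnf vesicles, at 8.35 and 6.45 and the protease gene Adam17 at 7.19 and 5.42. Plat, the tissue plasminogen activator, stood at 5.59 and 4.49, and Mmp9 had none.

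All 13 Trk signalling genes were open, among them the adaptor genes Grb2 at 7.95 and 6.41, Frs3 at 6.53 and 5.39 and Shc1 at 5.57 and 4.62. All 9 genes of p75 partners were open, with Ripk2 at 7.59 and 4.88 and Lingo1, a co-receptor of p75, at 4.27 and 5.17. Of the regulators of Bdnf transcription 10 of 12 were open. Creb1 stood at 10.1 and 6.64, Usf1 at 5.95 and 5.26 and Crtc1 at 6.75 and 4.35. Nfatc4 had a low promoter peak of 0.243 in replicate 1 alone and Carf had none. The median of the mean promoter heights was 4.16 for Trk signalling and 2.87 for p75 partners. The promoters of Ntf3 and Ngfr were under 1 in both replicates, lower than either median.

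**Figure D5:**
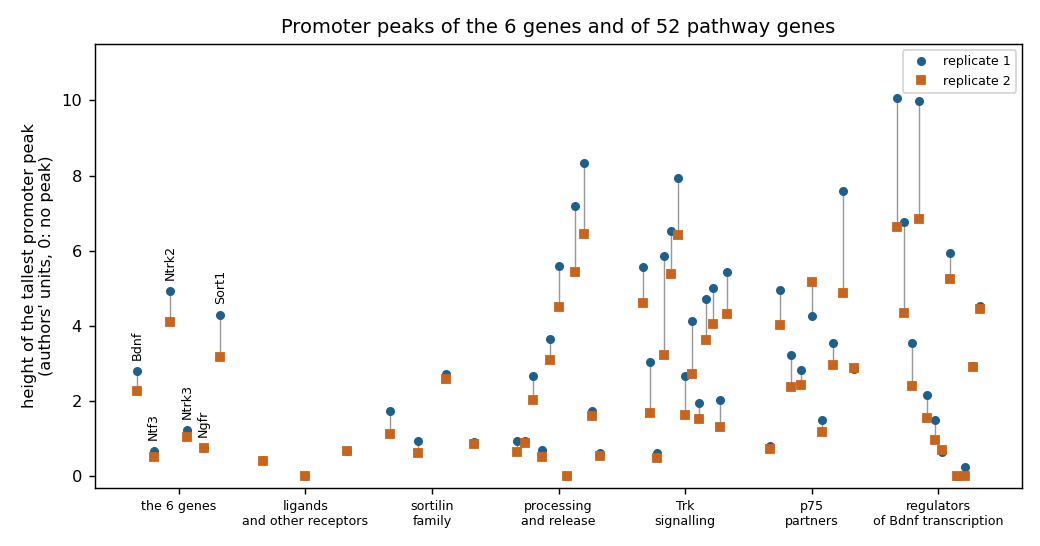
Height of the tallest promoter peak in the authors' units (vertical axis, 0 where there was no peak) for the 6 genes and the 52 other pathway genes, grouped by role (horizontal axis), with replicate 1 as blue circles and replicate 2 as orange squares joined by a line. Ntrk2 and Sort1 reach the level of many signalling genes, while Ntf3 and Ngfr stay under 1.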

How the data were processed

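DNase-seq of 2 hippocampus samples was used. Per the labels the assembly was mm10. No label or header names the aligner or the callers of peaks and footprints. How reads of the CAST/EiJ allele mapped was not analysed here, and worse mapping would lower heights where that allele differs. Per sample there were 2 deposited peak lists, whose value for a peak is the authors' height (a signal) on a scale that no source states. The heights below 200 steps, 111906 and 96430 of them, were whole step multiples to within 0.1 of a step, which was 0.00656 in replicate 1 and 0.00646 in replicate 2. The authors also deposited q-values (false discovery rates) of the local cut rate, with no interval above 0.05, and footprints that all carry 0.01, presumably a p-value limit, and so have no order.

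Peaks of the longer list were assigned to a gene by an overlap of 1 bp with the GENCODE M21 gene span and 20000 bp to each side. Start sites within 100 bp were joined, and a start was open when a peak lay within 1000 bp. Height pairs were mutual best overlaps. GENCODE chromosomes and sequence of GRCm38.p6 were used: 11 of 11 RefSeq promoter sequences of the genes matched it, and 0 intervals lay beyond a chromosome end. Python 3.11.15, numpy 2.4.6, pandas 2.3.3, pysam 0.24.0, samtools 1.23.1 and matplotlib 3.10.9 were used. On simulated data of 72479 peaks, a planted shared part of 69.9% was recovered as 69.9%, and a planted log2 height change of -0.50 as -0.50.

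The genes, pathway and marker lists and motifs were chosen with earlier results of these data known. Named were the promoters of each gene, but not every start of Ntrk2 and Ntrk3. Also named were the 3 tallest sites of each gene found in both replicates, with others beside them, and the tallest site of a single replicate. Of the pathway genes, up to 4 per role with the tallest promoter were named, plus those with none. A few of these genes are not reported here. Chosen after values were seen were the E-box CAGATG, the longer CTCF core, the repeated string, the Bdnf site 16 sequence, the rule that a sequence away from starts must not lie near another gene's start, and the comparisons of genes with many peaks or start sites. Alternatives covered the peak list, flank, window, overlap, start grouping, scaling and each replicate left out.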

Additional observations from a re-analysis of the deposited data

How the results depend on the processing

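No paired analysis was possible because the series has 1 group and no groups were compared. Of 104 alternative values, 88 stayed within the spread between replicates or, for counts, within 1.5 times, 16 moved beyond it and 0 reversed. For heights and shares, leaving out 1 of 2 replicates cannot move the mean beyond the SD, so those values could only stay. A reversal was possible only for the log2 ratio. For the log2 ratio, which has no replicate spread, a change of over 10% of the value counted as moved. The Bdnf count of peaks, 13.5 on average, moved by over 1.5 times without replicate 1, to 8, and was 19 without replicate 2. With the shorter peak list the mean counts were 8.5 for Ntf3, 20 for Ntrk2, 19 for Ntrk3 and 5.5 for Sort1, against 15.5, 32, 43.5 and 15.5. In that list 2 of the 8 Bdnf starts were open in both replicates in place of 7, and 89.3% of peaks held a footprint in place of 81.6%. The shorter list and the left-out replicates for motifs, and the left-out replicates for promoter heights, were added after seeing the data. There the CRE core was in 14.1% of peaks (13.5% in the longer list) and the AP-1 string in 1.59% (3.90%). A flank of 50000 bp gave Ngfr 9 peaks in place of 3. Scaled to all pairs, the median log2 ratio at these genes was -0.10 in place of -0.29, and the Ngfr promoter height 0.804 in place of 0.752. A promoter window of 2000 bp raised the mean height to 3.54 for Bdnf, 0.934 for Ntf3 and 1.86 for Ngfr, since it takes in the intronic sites beside the starts, and one of 500 bp lowered Ntf3 to 0.472.

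Without read counts no interval can be given for a height. Of the 54 sites found in replicate 1 alone, 10 had bases listed in replicate 2. Absence of a peak is a limit of detection and does not show closed chromatin. With 2 pools, an SD rests on 2 values.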
